A study of Mus musculus with 2 samples.

Results

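Il1r2 encodes the interleukin-1 receptor type 2, the decoy receptor of the interleukin-1 family, and it was followed here as 1 gene of the 379 on a Xenium panel. Its transcripts were taken by gene name at a decoding quality score of at least 20, which gave 7137 transcripts in the mock section and 11041 in the SspA+HDM section. Each transcript was then described by the cell it lay in and by its depth below the skin surface. Xenium decodes single RNA molecules at their position in a thin tissue section.

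The tissue was whole dorsal skin of C57BL/6 mice that had been shaved and depilated, taken at day 7 and cut at 5 µm from fixed, paraffin-embedded blocks. Mock skin received PBS on its surface and treated skin received SspA together with HDM on its surface; these abbreviations are given as the labels write them. With 1 sample for each treatment, the differences below are without a replicate check and without a test, and intervals are 95% intervals for counting error only. Each section held 2 separate strips of skin, whose values are given as parts of that section and not as replicates, since the labels do not say whether they came from separate animals.

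The receptor binds interleukin-1 alpha and interleukin-1 beta but lacks the cytoplasmic part through which the signalling receptor Il1r1 acts, so it takes up ligand without passing on a signal. It can also bind the accessory protein Il1rap that the signalling receptor needs, and it can be shed from the cell as a soluble receptor. In skin it is known from keratinocytes, and elsewhere from monocytes, neutrophils and some T cells. Of 49 genes listed for the interleukin-1 pathway, only Mmp8, Mmp9, Csf3r and Cxcr2 were on the panel, so neither the ligands nor the signalling receptor were measured.

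The sections gave 2325265 and 7929474 gene transcripts in cells for mock and SspA+HDM, in 15932 and 46142 segmented cells with medians of 103 and 121 transcripts. No cell identifier was shared between the sections. Of 59588 cells with at least 20 transcripts, clustered together without Il1r2, 16 of 26 clusters could be named from panel markers. Keratinocyte-like, hair-follicle-like, fibroblast-like, macrophage-like, endothelial-like, adipocyte-like and skeletal-muscle-like clusters were all present, as the label of whole skin implies. The highest control feature had 34 transcripts in mock and 127 in SspA+HDM, so Il1r2 stood 210-fold and 86.9-fold above it.

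Il1r2 took a smaller part of the measured RNA in SspA+HDM skin, while more of it lay under each mm of skin. Its level, given as CPM over all panel transcripts in cells, was 2996 in mock (2926 to 3067, exact Poisson) and 1377 in SspA+HDM (1352 to 1403). This is 2.17-fold lower (2.11 to 2.24), where 12.7% of 346 genes (44, of those reaching 100 transcripts in either section) were at least 2-fold lower, and 31 genes had a lower ratio than Il1r2. Per mm of strip the order was the opposite, with 514 transcripts in mock and 732 in SspA+HDM, over 1176 and 3093 cells per mm. Per 100 cells the values were 43.7 and 23.7.

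The strips of a section lay close together. Mock strips had 3096 and 2906 CPM and SspA+HDM strips 1444 and 1322 CPM, so the sections did not overlap. Per mm the strips held 506 and 523 transcripts in mock and 695 and 769 in SspA+HDM, again without overlap. Among the 379 genes Il1r2 ranked 77th by count in mock and 114th in SspA+HDM.

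The place of Il1r2 in the tissue differed as well. Epithelium, meaning keratinocyte-like, hair-follicle-like, cycling-like and other clusters rich in epithelial genes, held 39.96% of the Il1r2 in clustered cells in mock (38.8% to 41.1%, exact binomial) and 68.3% in SspA+HDM (67.4% to 69.1%). Fibroblast-like cells held 29.5% and 11.2%. Epithelium made up 45.3% and 51.8% of the clustered cells, and fibroblast-like cells 13.9% and 11.8%, so the shares of Il1r2 moved further than the shares of cells. The epithelial share of all RNA was larger in SspA+HDM too. Epithelium held 1024875 of 2325265 gene transcripts in cells in mock and 5008939 of 7929474 in SspA+HDM. Its Il1r2 level was 2695 CPM against 2996 in the whole section of mock, and 1481 against 1377 in SspA+HDM.

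**Figure D1:**
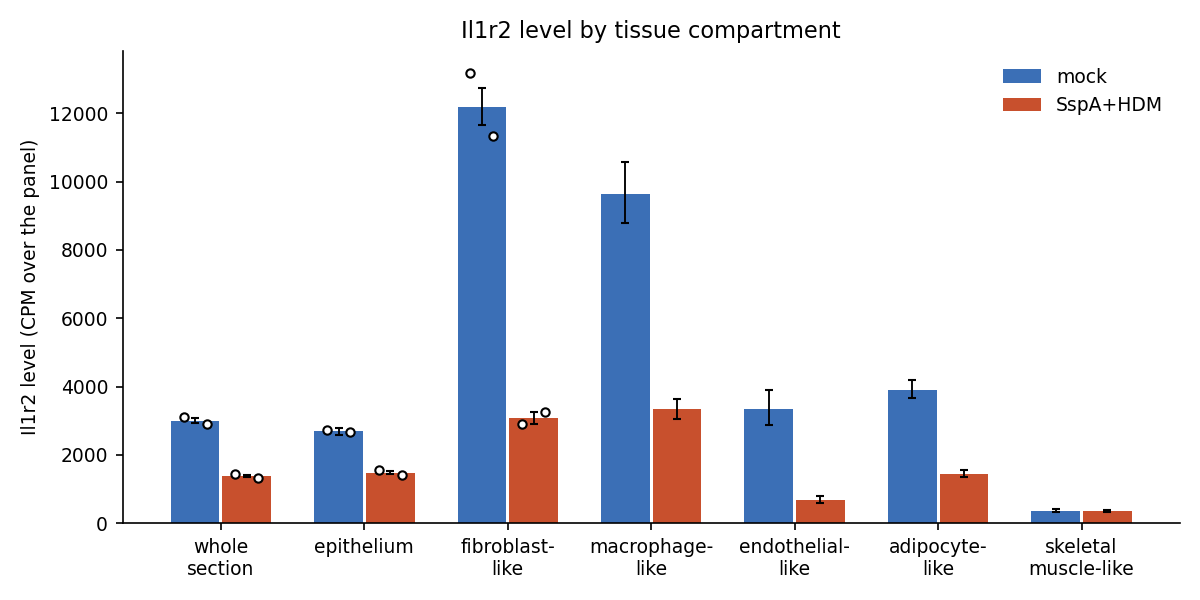
Bars give the Il1r2 level in CPM over the panel for the whole section and for each compartment, mock beside SspA+HDM, with exact Poisson 95% intervals that cover counting error only; open circles are the 2 strips of a section, shown for the first 3 groups. Fibroblast-like cells had the highest bar in mock, at 12189 CPM against 3088 in SspA+HDM, and skeletal-muscle-like cells had 360.0 and 361.

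Levels within compartments followed different orders in the 2 sections. In mock, fibroblast-like cells came first with 12189 CPM (11666 to 12730), then macrophage-like cells with 9654 (8788 to 10582). Adipocyte-like cells with 3914 (3653 to 4189) and endothelial-like cells with 3356 (2864 to 3909) had overlapping intervals, and epithelium followed with 2695 (2595 to 2797). In SspA+HDM, macrophage-like cells with 3335 (3064 to 3622) and fibroblast-like cells with 3088 (2917 to 3267) were first and overlapped. Epithelium with 1481 (1447 to 1515) and adipocyte-like cells with 1447 (1349 to 1551) overlapped too, and endothelial-like cells had 679 (577 to 794).

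Skeletal-muscle-like cells gave the lowest level of these compartments in both sections, 360.0 CPM (317 to 407) and 361 (329 to 395). In them only 1.64% of 183 genes were lower by 2-fold or more in the treated section. Their level is a low reference drawn from the same values and not an independent background. Their 2 clusters differed, with 69.2 and 82.0 CPM in cluster 7 and 738 and 593 CPM in cluster 2. Thinned to 50 transcripts per cell, 2.14% of muscle-like cells in mock and 1.97% in SspA+HDM held Il1r2. Cells with fewer than 50 transcripts were left out of thinned shares, among them 672 of 2126 fibroblast-like cells in mock and 1748 of 5230 in SspA+HDM. Thinned in the same way, the share was 39.1% and 13.6% of fibroblast-like cells, 36.5% and 11.7% of macrophage-like cells, and 11.2% and 5.30% of epithelial cells. Endothelial-like cells had 15.03% in mock and 3.13% in SspA+HDM (2.41% to 3.98%), and in cluster 7 of muscle-like cells the shares were 0.453% and 0.738%. Without thinning, the muscle-like shares were 7.93% and 8.06% at medians of 278 and 266 transcripts, the fibroblast-like shares 45.1% and 17.4% at medians of 67 and 65, the epithelial shares 22.5% and 12.8% at 123 and 168, and the endothelial-like shares 18.6% and 5.17% at 58 and 77.

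Fibroblast-like cells, the collagen-making cells of the dermis, had fewer Il1r2 transcripts in SspA+HDM as a level, per cell and per mm. Their level was 3.95-fold lower in SspA+HDM (3.67 to 4.24), where 18.4% of 196 genes measured in these cells were at least 2-fold lower and 11 had a lower ratio than Il1r2. The strips gave 13176 and 11350 CPM in mock and 2897 and 3250 CPM in SspA+HDM, so they did not overlap. Per mm of skin these cells held 151 transcripts in mock and 81.2 in SspA+HDM, although their number per mm was 157 against 351. Per mm the ratio of SspA+HDM to mock was 0.539 in these cells, against 2.44 in epithelium, 1.117 in macrophage-like and 0.864 in endothelial-like cells.

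Most of that difference lay in cluster 0, led by Mfap4, Lum and Coch, genes of elastic microfibrils and dermal matrix. In 1391 mock cells it had 18355 CPM (17489 to 19253), or 121 transcripts per 100 cells, and in 4983 SspA+HDM cells 2861 CPM (2692 to 3038), or 21.4 per 100 cells. Its thinned share of cells with Il1r2 was 53.7% in mock and 12.7% in SspA+HDM, with 534 and 1654 of its cells left out for too few transcripts. Of the 7 fibroblast markers on the panel, 5 had lower levels in SspA+HDM over all fibroblast-like cells and 2 had higher ones. Pi16 had 94124 CPM in mock and 14273 in SspA+HDM and Igfbp6 had 31100 and 4935, while the collagen-binding proteoglycans Lum, with 59834 and 98990, and Bgn, with 33896 and 89866, went the other way.

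The deep fibroblast-like cluster 22 differed in the opposite direction as a level, though not per mm of skin. It was led by Retnla, a secreted resistin-family protein, and by Pi16 and Igfbp6, which mark fibroblasts of the adventitia and fascia, and its cells lay at a median depth of 217 µm in mock and 393 µm in SspA+HDM. Il1r2 was 4698 CPM (4222 to 5213) in 735 mock cells and 7258 CPM (6132 to 8531) in 247 SspA+HDM cells, a ratio of 1.54 (1.27 to 1.88) against 0.156 (0.144 to 0.168) in cluster 0. The number of these cells per mm was 54.3 in mock and 16.6 in SspA+HDM. When cells needed at least 40 transcripts, cluster 0 joined the macrophage-like cells, and the fibroblast log2 ratio, then resting on the Retnla-led cells, was 0.64 in place of -1.98.

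Within mock fibroblast-like cells the level went with the genes that separate those clusters. Cells with at least 3 Mfap4 transcripts had 20096 CPM and cells with none 6207. Cells with at least 3 Retnla transcripts had 4878 CPM and cells with none 17172. In SspA+HDM the same classes gave 2916 and 3893 CPM for Mfap4, and 6736 and 2956 CPM for Retnla. As a level, the order by both genes was thus turned. Per 100 cells the order was turned for Retnla but not for Mfap4. For Mfap4, in the same class order, the values were 159 and 52.7 Il1r2 transcripts in mock and 25.7 and 23.7 in SspA+HDM.

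**Figure D2:**
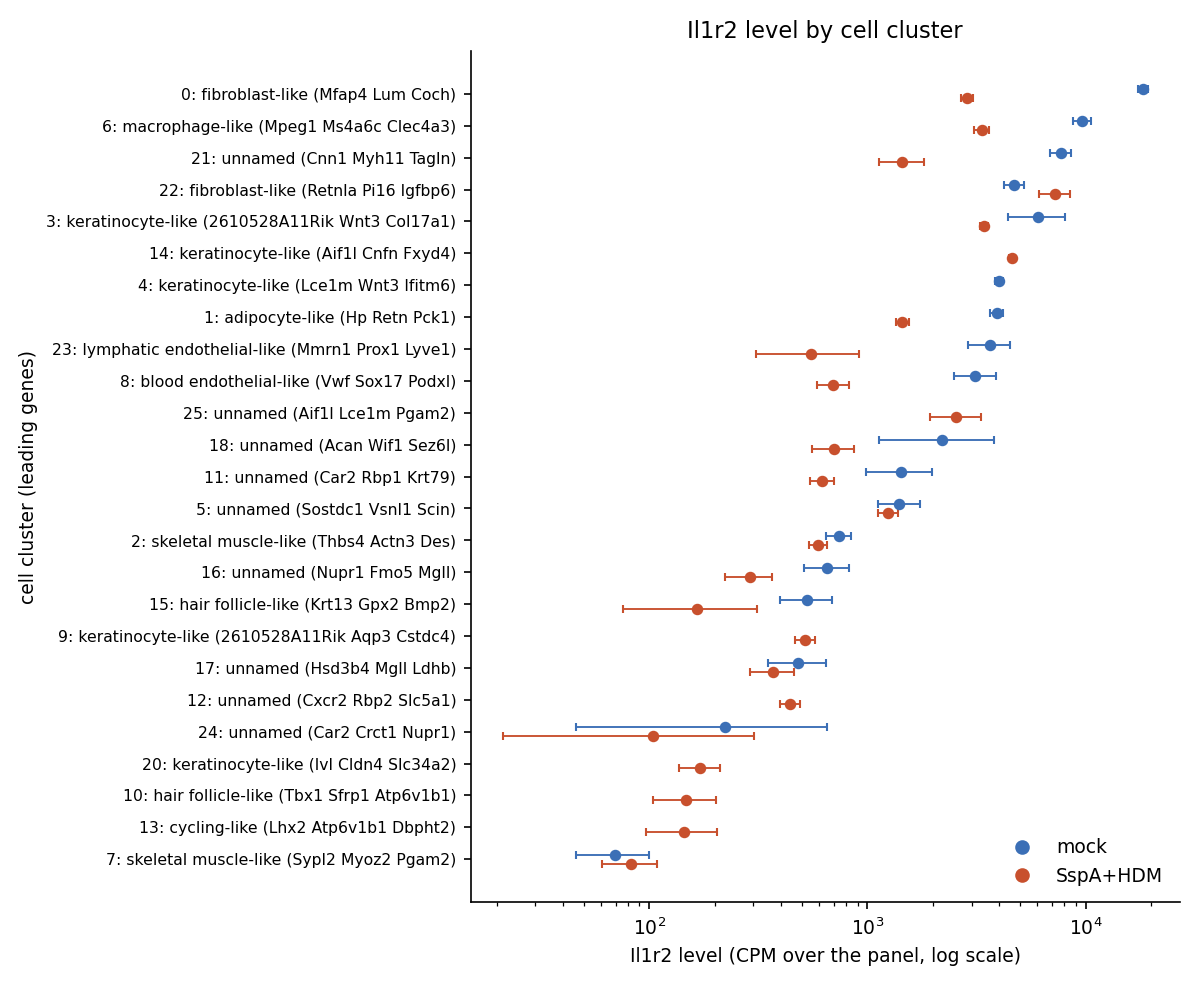
Each point is the Il1r2 level in CPM over the panel, on a log axis, of a cell cluster with at least 50 cells in that section, with its exact Poisson 95% interval; clusters are named by number, class and 3 leading genes, and the unnamed cluster 19 is not shown. Fibroblast-like cluster 0 spans 18355 CPM in mock and 2861 in SspA+HDM, and fibroblast-like cluster 22 runs the other way, from 4698 to 7258.

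Macrophage-like cells were the only leukocyte class that could be named, and their level was 2.90-fold lower in SspA+HDM (2.55 to 3.28). At least 2-fold lower were 7.19% of the 153 genes measured in them, and 8 genes had a lower ratio than Il1r2. Per mm of skin they held 33.7 and 37.6 Il1r2 transcripts. In SspA+HDM those without the macrophage gene Ms4a7 had 4722 CPM and those with at least 3 Ms4a7 transcripts 1392. In mock these values were 10213 and 8385 CPM, with overlapping intervals. With at least 3 Csf3r transcripts the SspA+HDM level was 6064 CPM (4471 to 8040), against 3171 with 1 or 2 and 3214 with none. In mock it was lower with 1 or 2 Csf3r transcripts, 6997 CPM (5226 to 9175), than with none, 10228 (9254 to 11277). With at least 3 transcripts of the T cell gene Ctla4 the SspA+HDM level was 7263 (4552 to 10996), against 3167 with none. That class was 39 cells with 22 Il1r2 transcripts. With 1 or 2 transcripts of the T cell gene Cd3d it was 4003 (2897 to 5391), against 3276 (2999 to 3573) with none, which overlapped. The part of other leukocytes in this class was not tested. Fibroblast markers were counted in these outlines too, 136699 and 127794 CPM summed over 7, of which 3 were lower and 4 higher in SspA+HDM. Pi16 had 31608 and 6087 CPM there and Lum 38531 and 46475, and their part in the Il1r2 level was not tested. Macrophage-like cells at least 20 µm from the nearest fibroblast-like cell had 7543 CPM in mock (6042 to 9304) and 2396 in SspA+HDM (1860 to 3037). Those under 10 µm had 11172 (8693 to 14139) and 4143 (3596 to 4749). The direction between the sections was thus the same far from fibroblast-like cells. Near and far intervals overlapped in mock but not in SspA+HDM. The log2 ratio of -1.53 was -0.80 with compartments from summed markers, -0.94 over nuclei and -2.39 where cells needed at least 40 transcripts.

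A small group of granulocyte-like cells held much Il1r2 in SspA+HDM. Outside the epithelium, 48 cells had at least 3 transcripts of Csf3r, the receptor of granulocyte colony-stimulating factor, and none of the macrophage genes Ms4a6c, Ms4a7, Mpeg1 and Clec4a3. They carried 64 Il1r2 transcripts, 12044 CPM (9275 to 15379), with Cxcr2, a chemokine receptor of neutrophils, at 15995 CPM. The fibroblast marker Lum was counted in their outlines too, at 29545 CPM. No mock cell met that rule, and the 7 mock cells with at least 3 Csf3r transcripts all held macrophage genes and had 2 Il1r2 transcripts. These cells formed no cluster of their own, and they held a small part of the 10922 Il1r2 transcripts in cells. A larger group of 229 SspA+HDM cells had at least 3 Csf3r transcripts together with macrophage genes. It held 149 Il1r2 transcripts, 4196 CPM (3549 to 4926). Among fibroblast-like cells of SspA+HDM, the 30 with at least 3 Csf3r transcripts had 22695 CPM of Il1r2 (17439 to 29036) against 2909 in those with none. By the rule, these 30 belong to the 48 or the 229 cells.

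Endothelial-like cells, the lining of blood and lymph vessels, had the lowest ratio of the 4 compartments at 0.202 (0.162 to 0.253), 4.94-fold lower in SspA+HDM. In them 16.3% of 172 genes were at least 2-fold lower and only 3 had a lower ratio than Il1r2. The counts were 165 and 157 transcripts. Blood-endothelial-like cells had 3123 CPM in mock and 696 in SspA+HDM, and lymphatic-endothelial-like cells 3638 and 552, the last from 15 transcripts. Fibroblast markers were also counted in these outlines, and 5 of 7 were lower in SspA+HDM. Pi16 had 15297 and 2964 CPM, 5.16-fold lower, and Pcolce2 7811 and 1731, 4.51-fold lower, while Lum had 18877 and 20307. Summed, the 7 markers had 95442 and 85341 CPM. Cells at least 20 µm from a fibroblast-like cell had 2426 CPM (1817 to 3173) in mock and 441 (298 to 630) in SspA+HDM. How much of the Il1r2 in these outlines came from neighbouring cells was not tested. Over nuclei the log2 ratio was -1.71 in place of -2.30.

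No cluster could be named for the mural cells around vessels under the naming rule. Cluster 21, led by the smooth muscle genes Cnn1, Myh11 and Tagln, had 7701 CPM in 492 mock cells (6876 to 8599) and 1444 CPM in 617 SspA+HDM cells (1134 to 1813). Adipocyte-like cells were 2.70-fold lower in SspA+HDM (2.45 to 2.98), where 4.84% of 186 genes were at least 2-fold lower. In mock adipocyte-like cells the level was 11609 CPM under 10 µm from a fibroblast-like cell and 3093 CPM at 20 µm or more; in SspA+HDM it was 2806 and 1287.

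In epithelium Il1r2 was 1.82-fold lower as a level (1.74 to 1.90) and 2.44-fold higher per mm of skin. At least 2-fold lower were 23.5% of the 285 genes measured there, 82 genes had a lower ratio than Il1r2, and the median log2 ratio of all of them was -0.31 against -0.86 for Il1r2. The strips gave 2717 and 2675 CPM in mock and 1555 and 1418 CPM in SspA+HDM. Epithelial transcripts of Il1r2 numbered 204 per mm in mock and 497 in SspA+HDM, over 512 and 1537 epithelial cells per mm. Different clusters held most of the epithelium in the 2 sections, so the layers are described by cluster number and by depth.

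In mock, cluster 4 held 2416 of the 2762 epithelial Il1r2 transcripts. It was keratinocyte-like, led by Lce1m, a late cornified envelope gene, and Wnt3, lay at a median depth of 15.1 µm and had 4020.1 CPM (3861 to 4184) over 3193 cells. The 39 SspA+HDM cells of this cluster had a higher level, 12494 CPM (9243 to 16517) from 49 transcripts, 3.11 times that of mock (2.29 to 4.12). Hair-follicle-like cells of mock had 548 CPM (418 to 707), between the 2 muscle-like clusters at 69.2 and 738 CPM.

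In SspA+HDM, epithelial Il1r2 was carried by an outermost and a deeper keratinocyte-like cluster, with low levels between them. Cluster 14, led by Aif1l, Cnfn and Fxyd4 and rich in the cornified envelope genes Lor and Crct1, lay at a median depth of 7.59 µm. Its 1941 cells held 3755 Il1r2 transcripts, 34.6% of all in clustered cells of that section, at 4588 CPM (4442 to 4737). Cluster 3, with Wnt3 and Col17a1, the hemidesmosome collagen of basal keratinocytes, lay at 61.0 µm and held 2016 transcripts at 3427 CPM (3279 to 3580). The T cell marker Rac2 was also among its leading genes.

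The other epithelial clusters with at least 50 cells were lower, in a range from 103 to 1241 CPM. The highest was the unnamed cluster 5, led by Sostdc1 and Vsnl1, with 1241 CPM (1117 to 1375) from 367 transcripts, and the unnamed cluster 11 had 617. Cluster 9, led by 2610528A11Rik and the water and glycerol channel gene Aqp3, had 517 CPM, and the Cxcr2-led cluster 12 had 441 CPM. The Ivl-led cluster 20, named for the envelope protein involucrin, had 171 CPM (136 to 212) in 1114 cells at 22.6 µm. Hair-follicle-like cells had 150 CPM (110 to 200) and the cycling-like cluster 13 had 143 (96.7 to 205). These last values lay between the levels of the 2 muscle-like clusters.

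Levels also differed by the other genes found in the same epithelial cell. SspA+HDM epithelial cells with at least 3 Cxcr2 transcripts had 187 CPM of Il1r2 and those with none 1801. With at least 3 transcripts of Lhx2, a hair follicle transcription factor, the level was 155 CPM, against 1629 with none. In mock, cells with at least 3 transcripts of Krt79, a keratin of the upper follicle, had 808 CPM and those with none 3455. By the T cell gene Rac2, SspA+HDM epithelial cells had 3977 CPM with at least 3 transcripts and 1420 with none. By Cd3d, another T cell gene, they had 1450 CPM with none, 2857 with 1 or 2 and 2167 with at least 3. The part of T cells in epithelial Il1r2 was not tested.

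**Figure D3:**
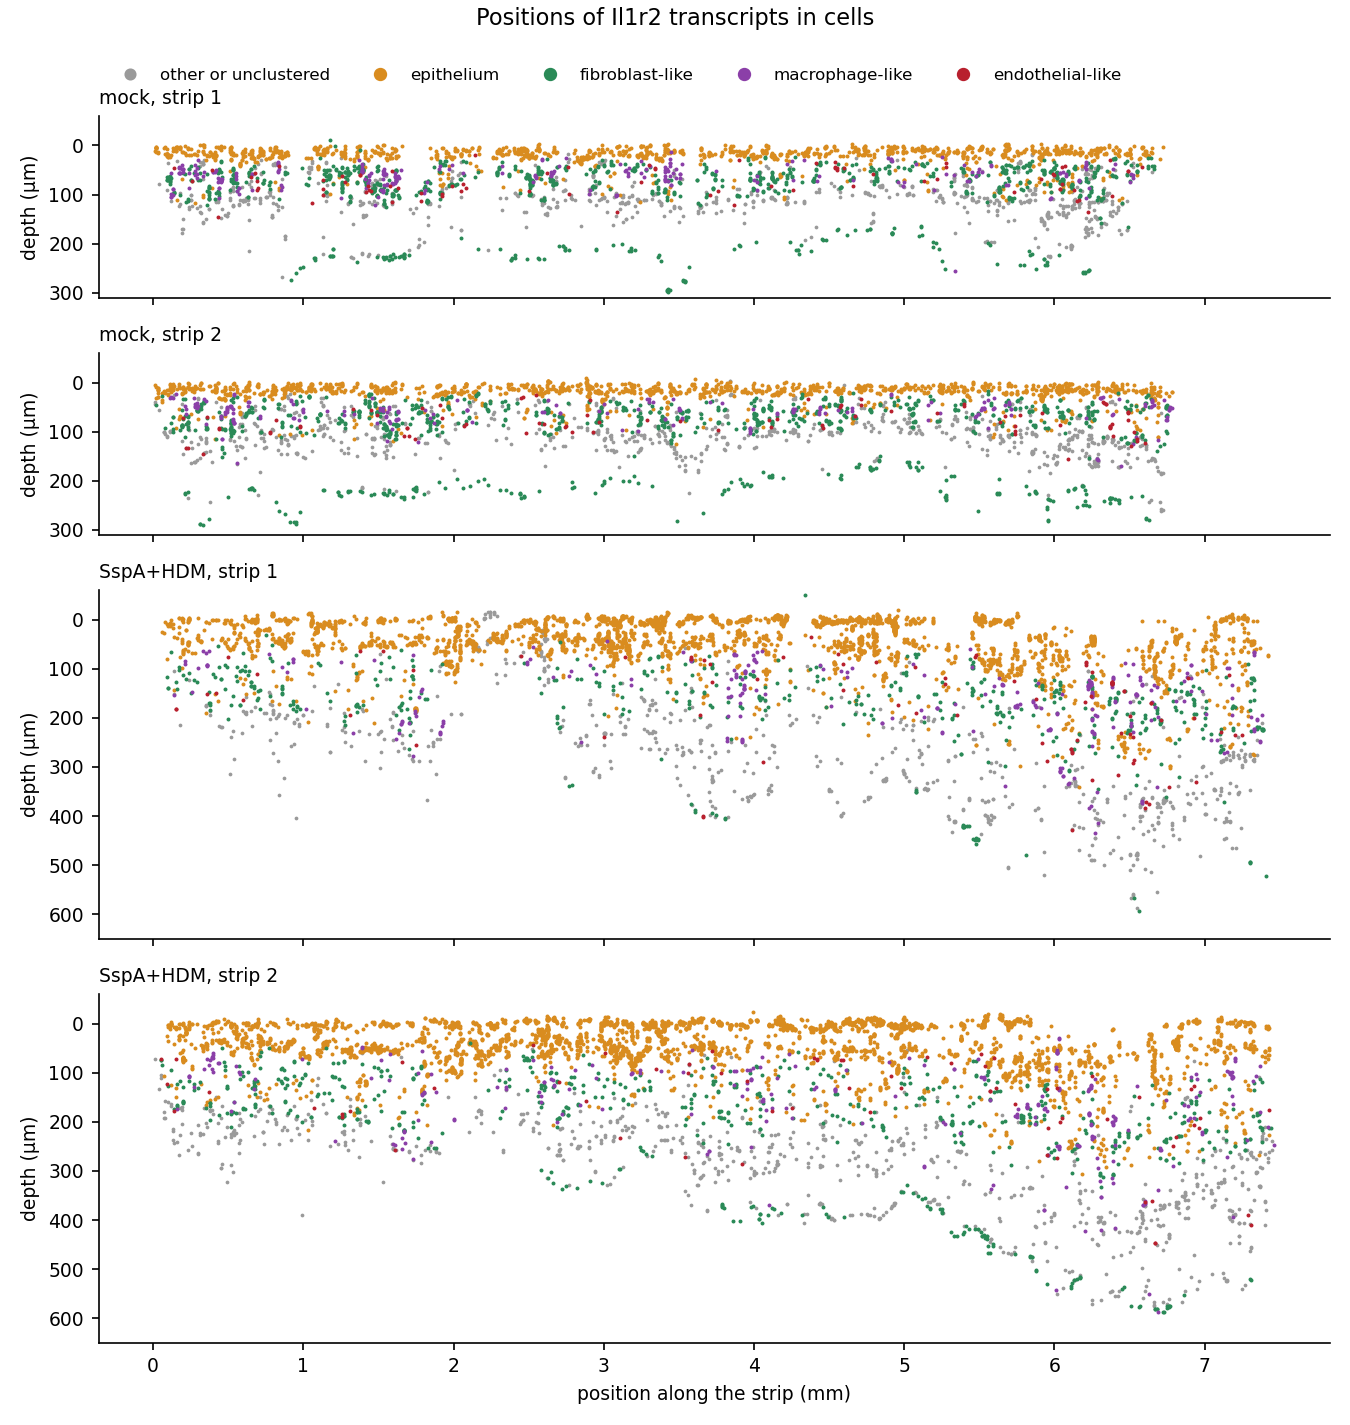
Each dot is an Il1r2 transcript in a cell, placed by its position along the strip in mm and its depth below the outer edge in µm, and coloured by compartment; the 4 panels are the 2 strips of each section, with depth at 1 scale throughout. Mock strips show a single epithelial band above a dense layer of fibroblast-like and macrophage-like transcripts, and SspA+HDM strips show an outer and a deeper epithelial band.

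By depth, the median Il1r2 transcript lay 54.8 µm below the outer edge in mock and 59.4 µm in SspA+HDM, while the median of all gene transcripts was 94.2 µm and 121 µm. Medians of single strips were 55.9 and 54.1 µm for mock against 55.8 and 62.0 µm for SspA+HDM, so the sections overlapped at this measure. Transcripts less than 20 µm below the edge, or outside it, made up 27.4% of Il1r2 in mock and 28.4% in SspA+HDM. For all gene transcripts these shares were 21.3% and 11.8%.

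In mock epithelium the level differed little over the first 30 µm, with 3598 CPM under 10 µm, 4026 at 10 to 20 µm and 4333 at 20 to 30 µm. SspA+HDM epithelium had 5398 CPM (5196 to 5607) under 10 µm and then 950 (860 to 1046) at 10 to 20 µm and 808 (728 to 894) at 20 to 30 µm. Deeper bands had 1763 CPM (1670.5 to 1860) at 40 to 60 µm, 1743 at 60 to 80 µm and 493 at 120 to 160 µm, a second and lower maximum. The band under 10 µm, which also takes in positions up to 30 µm outside the edge line, held 36.02% of the epithelial Il1r2 in SspA+HDM and 26.0% in mock.

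Below the epithelium, mock fibroblast-like cells had their highest levels in the upper dermis, with 22235 CPM (20368 to 24226) at 40 to 60 µm and 22036 at 60 to 80 µm. They had 17113 at 80 to 120 µm and 4663 (4126 to 5250) at 160 to 240 µm. SspA+HDM fibroblast-like cells had 1565 CPM (1102 to 2158) at 60 to 80 µm, 2402 at 80 to 120 µm, 3366 at 160 to 240 µm and 7026 (5910 to 8291) at 320 to 640 µm. Nearer the surface, mock fibroblast-like cells had 7880.5 CPM (5810.4 to 10448) at 20 to 30 µm and 12276 at 30 to 40 µm, and SspA+HDM fibroblast-like cells had 1707 (781 to 3241) at 40 to 60 µm. Mock thus had its maximum between 40 and 80 µm, and SspA+HDM in the deepest band.

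**Figure D4:**
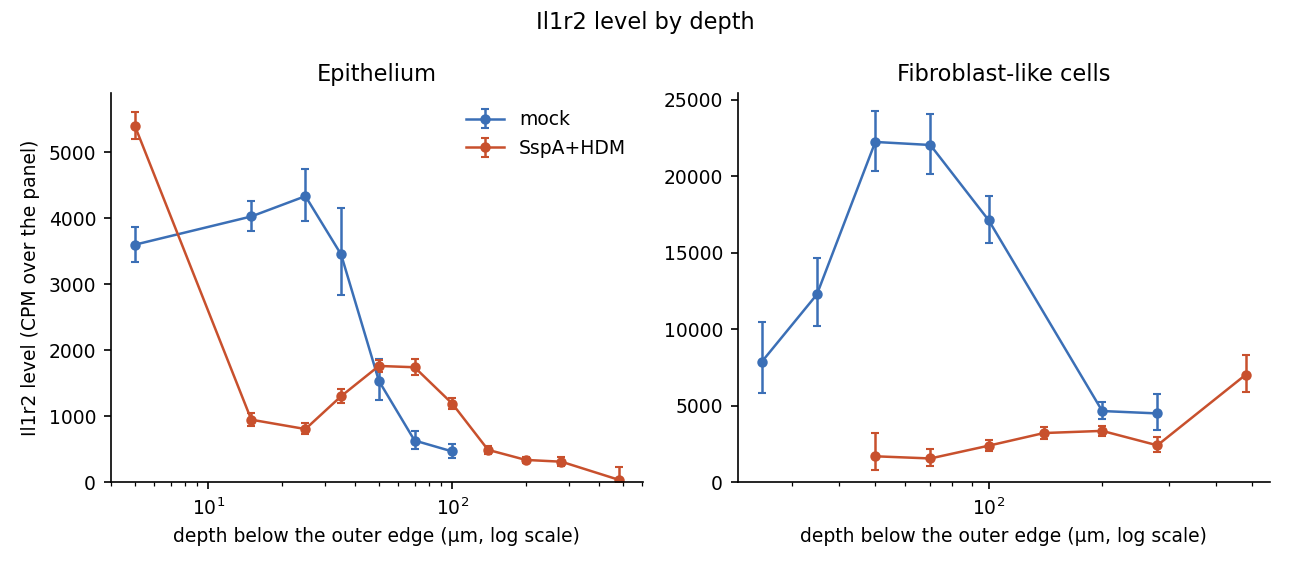
Il1r2 level in CPM over the panel by depth below the outer edge in µm, on a log depth axis, for epithelium (left) and fibroblast-like cells (right), with exact Poisson 95% intervals; points sit at the middle of each band and the first band also takes in cells up to 30 µm outside the edge line. SspA+HDM epithelium starts at 5398 CPM and drops to 950 in the next band, and mock fibroblast-like cells reach 22235 CPM at 40 to 60 µm.

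Few cells held many Il1r2 transcripts, and they sat in different places. In mock 194 cells had at least 5, with a highest value of 10, and 85 of them were fibroblast-like and 79 epithelial. In SspA+HDM 425 cells had at least 5, with a highest value of 37, and 390 of them were epithelial and 11 fibroblast-like. At least 10 transcripts were found in 5 mock cells and 127 SspA+HDM cells, 125 of the latter epithelial.

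In the surface cluster 14 the level went with Lce1m, a comparison chosen after the values were seen. Cells without Lce1m had 1985 CPM of Il1r2 (1866 to 2110), cells with 1 or 2 Lce1m transcripts 5744 (5350 to 6160), and cells with at least 3 had 11951 (11425 to 12496). The last were 315 of 1941 cells and held 51.6% of the cluster's Il1r2, or 615 transcripts per 100 cells. Their median total was 479 transcripts against 391 in cells without Lce1m. Lce1m itself was 7.09-fold lower in the whole SspA+HDM section, where it had 388 CPM against 2752.

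Over all epithelium the steps by Lce1m were 980 CPM, 4697 CPM and 11593 CPM in SspA+HDM, and 2115, 3122 and 4285 CPM in mock. Mock and SspA+HDM differed in direction among these classes: the level was lower in SspA+HDM in cells without Lce1m and higher in cells with it. In the mock cluster 4 alone there was no such order, with 4314, 3220 and 4240 CPM.

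**Figure D5:**
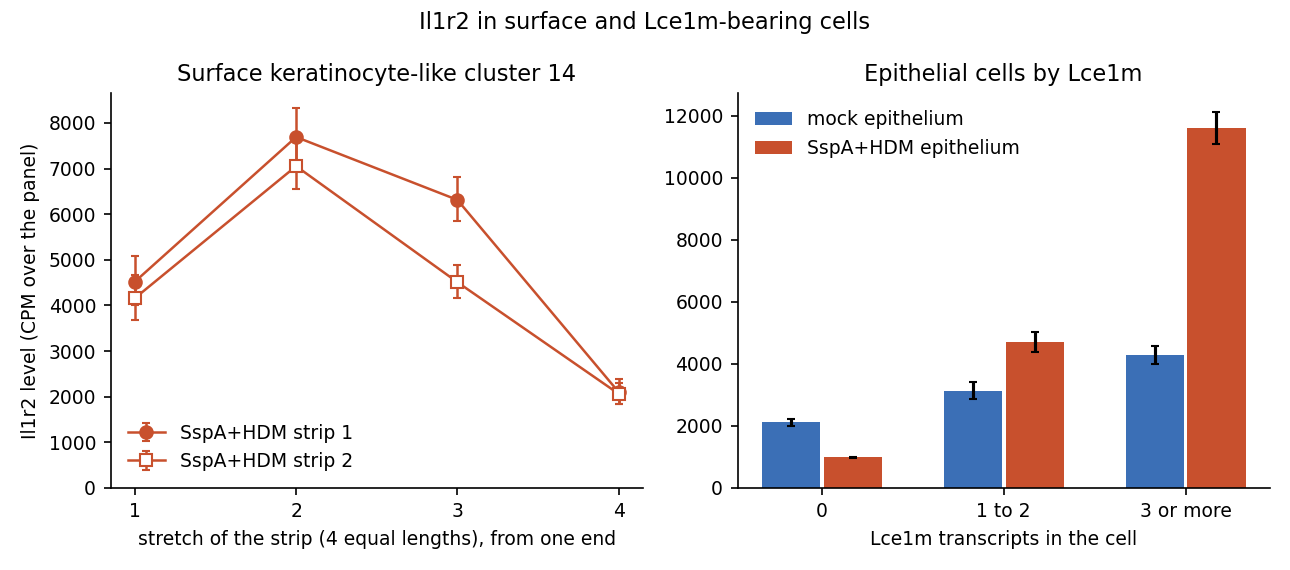
Left, Il1r2 level in CPM over the panel in surface cluster 14 for each of 4 equal stretches of the 2 SspA+HDM strips; right, the level in epithelial cells of both sections by the number of Lce1m transcripts in the cell; bars and points carry exact Poisson 95% intervals. Both strips peak in the second stretch, at 7692 and 7053 CPM, and SspA+HDM cells with at least 3 Lce1m transcripts reach 11593 CPM.

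Along the SspA+HDM strips, cluster 14 was uneven in the same order in both. With each strip cut into 4 equal stretches, its level in stretches 1 to 4 was 4520 CPM, 7692, 6314 and 2100 CPM in strip 1, and 4159 CPM, 7053, 4510 and 2061 CPM in strip 2. In strip 2 the intervals of stretches 1 and 3 overlapped (3687 to 4673 and 4160 to 4881). Lce1m was highest in the second stretch too, at 5384 and 6139 CPM, and lowest in the last, at 1765 and 1934 CPM. Within Lce1m classes the highest value lay outside the second stretch, but no intervals were computed for these classes. Cells with at least 3 Lce1m transcripts had 17866 and 13364 CPM in stretch 3, from 33 and 40 cells. In stretch 2 they had 12225 and 12763 CPM, from 58 and 74 cells, so in strip 2 these stretches lay close together. Cells without Lce1m had most in stretch 3 of strip 1, at 3654 CPM, and in stretch 1 of strip 2, at 3361. In stretch 2 they had 3051 and 2791 CPM. Uox, a urate oxidase gene, was lowest in the second stretch, at 6588 and 7053 CPM.

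Il1r2 RNA lay over the nucleus more often than the panel as a whole. Of Il1r2 transcripts in cells 39.4% overlapped a nucleus in mock and 44.8% in SspA+HDM, against 25.8% and 31.6% of all gene transcripts. In the surface cluster 14 the value was 41.9% (40.4% to 43.5%) against 19.7% for all genes, and in mock fibroblast-like cells 39.6% against 25.4%. Endothelial-like cells of mock went the other way, with 18.2% (12.6% to 24.9%) against 33.0%, as did mock macrophage-like cells with 23.5% against 30.5%. In SspA+HDM the macrophage-like cells had 40.1% against 34.6%.

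The other measured genes of the interleukin-1 list are linked to neutrophils. Csf3r had 143 and 479 CPM in mock and SspA+HDM, a ratio of 3.34 (2.99 to 3.75), and Cxcr2 had 67.9 and 904 CPM, a ratio of 13.3 (11.4 to 15.7). At least 2-fold higher were 14.7% of the 346 genes. Of the 7171 Cxcr2 transcripts in SspA+HDM cells, 6310 lay in epithelium. The neutrophil collagenase gene Mmp8 had 18.9 and 50.1 CPM, a ratio of 2.65 (1.94 to 3.70). The gelatinase gene Mmp9 differed in the direction of Il1r2, with 630 CPM in mock and 244 in SspA+HDM, and in epithelium with 697 and 103 CPM. Past 2-fold, 3 of the 4 were thus higher and 1 was lower.

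The genes most like Il1r2 across clusters were taken from 237 with at least 1000 transcripts in cells. Likeness was Pearson's r of log2(CPM + 50) over 44 points, 19 mock and 25 SspA+HDM clusters, which share 2 sections and neighbouring outlines. Laptm5, a lysosomal membrane protein gene, came first with 0.69, then Alox5ap, which serves leukotriene synthesis, with 0.69, the cathepsin gene Ctss with 0.68 and Epsti1 with 0.67. Mmp9 had 0.65, the phagocyte oxidase subunit gene Ncf4 0.64, and the prostaglandin-degrading enzyme gene Hpgd and the extracellular superoxide dismutase gene Sod3 had 0.63. Within sections, r for Laptm5 was 0.84 in mock and 0.65 in SspA+HDM.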

How the data were processed

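Mouse dorsal skin was measured by Xenium In Situ, 1 sample for each treatment, at day 7 per the labels. The deposited tables list decoded transcripts, each with its gene, position, cell and nuclear overlap, and cell outlines; per the file headers every transcript also carries a decoding score (qv). Software and settings for decoding and segmentation: not given in the sources used here. Of the gene transcripts, those scoring at least 20 were kept, 79.4% in mock and 78.1% in SspA+HDM, and control features were dropped. The values of cluster 19 are not reported here. Positions were taken as µm, which no label states.

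Il1r2 was left out of the clustering, which took all cells of both sections holding at least 20 transcripts: log1p of scaled values, 30 principal components, 15 neighbours and Leiden (leidenalg 0.10.2) at resolution 1, without integration or a doublet caller. A cluster was called "X-like" when at least 3 markers of a class stood 2-fold above the other cells (CPM + 50) and the class led the top 10 genes by fold (minimum 1000 CPM), in at least 100 cells. Epithelium also took in any cluster in which Trim29, S100a14, Dsc3 and Serpinb5 made up 8% or more of the transcripts. This naming rule was settled with the panel in view. The gene, the marker and interleukin-1 lists and the rule for like genes were chosen with earlier results of these data known. The splits of cells by Lce1m, Mfap4, Retnla, Cxcr2, Lhx2, Krt79, Csf3r, Ms4a7, Ctla4, Rac2 and Cd3d were chosen after their values had been seen.

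CPM is a count over all gene transcripts of the same cells, so it moves with what else those cells express. Intervals are exact Poisson for levels, exact binomial (Clopper-Pearson) for shares and conditional binomial for ratios of SspA+HDM to mock. The interval code was tested on simulated data. Strips are pieces of cells linked within 100 µm. Depth was measured from a smoothed line through the 2nd percentile of epithelial cell positions in 50-µm bins, and corrected for its slope. Alternatives covered the quality filter, nuclear transcripts, other denominators, cell and cluster settings and single strips.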

Additional observations from a re-analysis of the deposited data

Results flagged for a closer look

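Fibroblast-like clusters differed in direction as a level. The log2 ratio of Il1r2 between SspA+HDM and mock was -2.68 in cluster 0, led by Mfap4 and Lum, and 0.63 in cluster 22, led by Retnla and Pi16. This difference was not tested, since each treatment had 1 sample. Cluster 22 had 735 cells in mock and 247 in SspA+HDM. Per mm of skin both clusters held fewer Il1r2 transcripts in SspA+HDM, with ratios of 0.574 in cluster 0 and 0.376 in cluster 22.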

How the results depend on the processing

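Of 60 alternative values, 28 stayed within the counting interval of the reported value, 30 moved outside it in the same direction and 2 changed direction. The whole-section log2 ratio of -1.12 was 0.51 per mm of strip length, where the denominator is skin length and not RNA. The fibroblast log2 ratio of -1.98 was 0.64 when cells needed at least 40 transcripts. There 4666 cells of fibroblast-like cluster 0 fell into 1 cluster with 2044 macrophage-like cells, which took the macrophage name, so the fibroblast value rested on the Retnla-led cluster and the leukocyte ratio (-1.53 as reported) was -2.39. Epithelial shares were then 41.5% and 69.6%. The cause of the other moves was not tested.

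The whole-section ratio was -1.23 without the quality filter, -1.23 over nuclei, -0.89 per segmented cell, -1.37 without skeletal muscle, adipocyte and smooth muscle clusters, and -1.23 and -1.01 between mock strip 1 and SspA+HDM strip 2 and between mock strip 2 and SspA+HDM strip 1. The epithelial ratio (-0.86 as reported) was -0.94 and -0.78 for these strip pairs, -0.93 at Leiden resolution 2, -0.30 per cell and -0.72 in keratinocyte-like clusters alone, an alternative added after seeing the data. Over nuclei the ratio was -2.18 in fibroblasts, -1.71 in vessels (-2.30 as reported) and -0.94 in leukocytes. Compartments from summed markers gave -2.24 in fibroblasts and -0.80 in leukocytes. The vessel ratio was -1.97 per cell, and fibroblast-like cluster 0 alone, also added later, gave -2.68. Leaving out cells within 20 µm of a fibroblast-like cell, added later too, gave -1.65 in leukocytes and -2.46 in vessels.

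Epithelial shares were 38.6% and 66.9% without the quality filter and 47.1% and 72.5% over nuclei, and 63.1% in SspA+HDM at resolution 2. Median depth in SspA+HDM was 61.1 µm without the filter and 55.8 and 62.0 µm in single strips, and in mock 44.3 µm over nuclei. No paired analysis was possible because each treatment had 1 sample. Treatment, section and animal cannot be told apart, and the vessel values rest on 165 and 157 transcripts.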

Other observations

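Unnamed clusters outside the epithelium also held Il1r2. Cluster 18, led by the proteoglycan gene Acan and the Wnt inhibitor gene Wif1, had 2186 CPM in 55 mock cells, from 12 transcripts, and 699 CPM (556 to 866) in 1496 SspA+HDM cells. Cluster 25 had no mock cells, and its 77 SspA+HDM cells, which mixed cornified envelope and muscle genes among their leading genes, had 2550 CPM (1931 to 3304).

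Cells with fewer than 20 transcripts, left out of the clusters, held 54 Il1r2 transcripts in mock and 55 in SspA+HDM.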
